A study of Mus musculus with 4 samples.

Results

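The transcriptome of male mouse liver lacking both Cyp27a1 and the Cyp3a genes was set against that of wild type male liver. Cyp27a1 is the mitochondrial sterol 27-hydroxylase, and the Cyp3a genes code for microsomal P450 enzymes that oxidise steroids, bile acids and drugs. The members of the comparison were all genes with a mean of at least 1 CPM over the 4 libraries of the series, where CPM are counts scaled to a library total of 1000000 after TMM adjustment. That filter kept 11743 of the 33639 genes in the tables. The series holds 1 RNA-seq library for each of 4 genotypes: wild type (WT), a global Cyp27a1 knockout (Cyp27a1 KO), a global knockout labelled with the human symbol Cyp3a4 (Cyp3a KO), and the global knockout of both (DKO). All 4 libraries came from livers of male mice on standard chow with free feeding and a 12 h light and 12 h dark cycle, with no treatment, so that genotype was the only stated difference. Strain, age, littermate status and the hour of collection were not given in the sources used here, and neither was whether a library held RNA of 1 animal or of several. The labels name no promoter or Cre driver, the knockouts being global.

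With 1 library on each side, no difference below has a replicate check, no test was run and no p-value is given. A gene was called higher or lower in the DKO where its log2 fold of CPM plus 0.5 was at least 1 in size and the exact 95% interval of its count ratio left out 1. By that rule 705 genes, 6.0% of those measured, were called higher in the DKO, and 472 genes, 4.02%, were called lower. These shares are the background against which the counts in each gene list below are to be read. Fold ratios are of CPM without the added 0.5, and the range in parentheses after a fold is its exact 95% counting interval, which holds no variation between animals. The interval was taken on rounded estimated counts, so it also leaves out doubt in the assignment of reads to near copies. The single knockouts are quoted beside the pair for scale. Each of them compared with WT shares the WT library with the DKO comparison, so values side by side are not independent.

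Bile acids are made from cholesterol in hepatocytes by a neutral route that starts with Cyp7a1 and by an acidic route that starts with Cyp27a1, which also oxidises the side chain in both routes before peroxisomes shorten it. Bile acids act back on the liver through the receptor FXR (Nr1h4), which induces the repressor Nr0b2 (SHP) and lowers Cyp7a1. Cholesterol synthesis is driven by SREBP2 when sterols in the endoplasmic reticulum are low, and the xenobiotic receptors PXR (Nr1i2) and CAR (Nr1i3) drive P450, sulfotransferase and glutathione transferase genes and can be activated by bile acid intermediates. Many liver genes differ between male and female mice under the pulse pattern of growth hormone acting through STAT5b.

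The middle 50% of genes lay between -0.29 and 0.31 on the log2 fold scale, and the median gene was at -0.01. The calls thinned quickly with size: 197 genes were called and at least 4-fold higher, 81 at least 8-fold and 11 at least 64-fold, against 114, 58 and 18 lower. Genes with the highest counts were called more often than those in the middle of the range. Among the 429 genes with a mean of at least 300 CPM, 41 were higher and 44 lower, 19.8% in all, while 6.90% were called among the 2521 genes between 30 and 100 CPM. In the range from 1 to 3 CPM 15.1% of 1799 genes were called. Of the 705 genes called higher, 153 stood below 1 CPM in WT, and 82 had a mean below 1 CPM over the other 3 libraries, so that they passed the filter through the DKO alone.

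**Figure D1:**
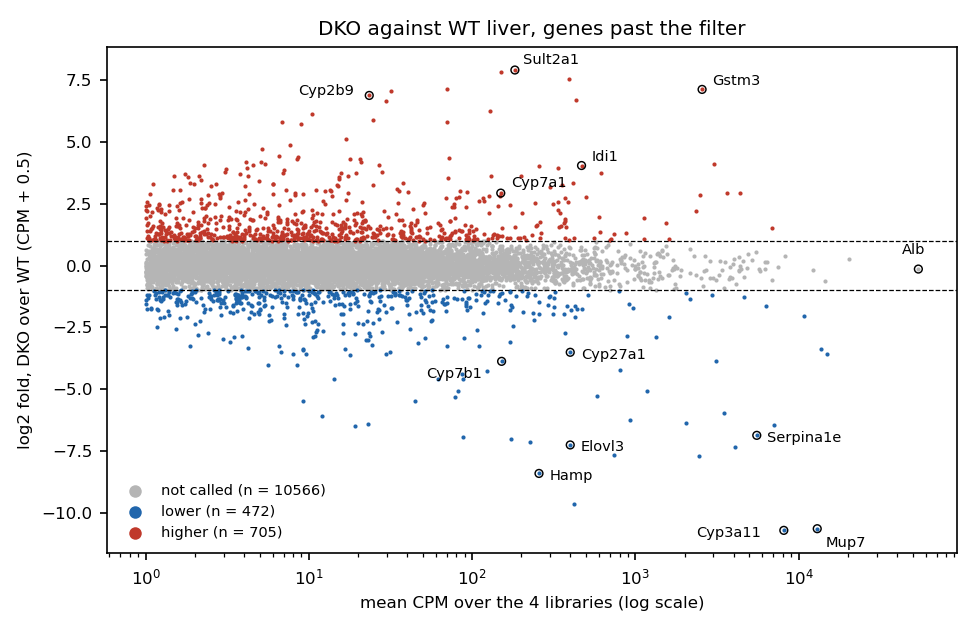
Each point is 1 of 11743 genes, with its mean CPM over the 4 libraries on a log axis and its log2 fold of DKO over WT (CPM + 0.5) on the vertical axis. Red and blue points are the 705 genes called higher and the 472 called lower, grey points were not called, and dashed lines mark 2-fold; abundant genes such as Mup7 and Gstm3 lie far from 0 while Alb lies at -0.14.

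The libraries held between 49745860 and 50378101 estimated counts, so depth differed little. What filled them differed more. The 21 measured major urinary protein (Mup) genes took 8.574% of the WT counts and 0.2629% of the DKO counts, and the 10 most abundant genes of each library took 21.27% and 17.48%. The median log2 fold over all genes measured was -0.01 on the TMM scale, 0.17 when scaled by library total and 0.33 on the deposited TPM. The share of calls that were higher was 59.9% on the TMM scale, 73.3% with library totals and 82.7% on TPM. Of the 705 genes called higher, 674 were also at least 2-fold higher on TPM. Of the 472 called lower, 243 were at least 2-fold lower on TPM, and folds of genes that lie near 2-fold lower should be read with that in mind. The 6 measured Y-linked genes, among them Ddx3y, Eif2s3y, Kdm5d and Uty, lay between -0.28 and 0.43 on the log2 fold scale, with Ddx3y at 51.8 CPM in WT and 62.9 in the DKO. Their presence matches the male labels.

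The deleted genes were lower in the library labelled DKO. Cyp27a1 (chr1:74713574-74737892, GRCm38) stood at 746 CPM in WT and 65.3 in the DKO (Cyp27a1 KO 57.6, Cyp3a KO 727), which is 11.4-fold lower (11.04 to 11.8) than WT. The remaining Cyp27a1 counts corresponded to fewer counts per TPM unit, 43.0 in the DKO against 65.1 in WT, a log2 shift of -0.45 in effective length once the median shift of 8895 genes, -0.14, was subtracted, where 90% of these genes lay between -0.25 and 0.20. Both libraries with a Cyp27a1 deletion thus kept a measurable signal of this gene, and both with the intact gene lay far above them. Cyp3a11 (chr5:145854426-145879964), the main hepatic Cyp3a gene of male mice, stood at 8742 CPM in WT, 23706 with Cyp27a1 lost, 0.1598 with Cyp3a lost and 4.76 in the DKO. Cyp3a25 held 677 CPM in WT, 1013 and 0 in the Cyp27a1 and Cyp3a knockouts, and 0.351 in the DKO. Cyp3a59 (log2 fold -6.94), Cyp3a16 (-3.07) and Cyp3a44 (-2.87) were also called lower, and Cyp3a57 was below the filter with 0.751 CPM in WT and 0 in the DKO. Cyp3a13, which lies apart from the main cluster, stood at 106 CPM in WT and 2.64 in the DKO, 40.1-fold lower (33.9 to 47.7). Cyp3a41a was the exception, at 2.12 CPM in WT and 5.39 in the DKO (Cyp27a1 KO 4.46, Cyp3a KO 0.0999). Its near copy Cyp3a41b held 0 counts in the DKO, and reads of such copies can be assigned to either, so single-gene values in this family are uncertain.

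Cholesterol synthesis genes were higher in the DKO throughout the pathway. All 10 measured genes of the mevalonate arm, which leads from acetyl-CoA to squalene epoxide, were called higher, with a median log2 fold of 3.12. Of the 10 genes of the steps from there to cholesterol, 9 were called higher, with a median of 2.18. The summed level of the first list was 551 CPM in WT, 1325 and 2078 in the Cyp27a1 and Cyp3a knockouts, and 5983 in the DKO, and that of the second 1371 CPM in WT, 2546 and 2671 in the Cyp27a1 and Cyp3a knockouts, and 5816 in the DKO. The order of libraries was the same in both sums, with WT lowest and the DKO highest, and both single knockouts in between. The median log2 folds of the mevalonate arm were 1.15 for the Cyp27a1 KO and 1.80 for the Cyp3a KO.

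Hmgcs1, which makes HMG-CoA, was at 119 CPM in WT, 198 with Cyp27a1 lost, 551 with Cyp3a lost and 1589 in the DKO, 13.3-fold higher (12.9 to 13.7) in the DKO than in WT. Idi1, the isopentenyl diphosphate isomerase, had the largest log2 fold of the arm, 4.04, with 68.8 CPM in WT, 229.6 and 433 in the Cyp27a1 and Cyp3a knockouts, and 1139.7 in the DKO. Fdft1, squalene synthase, was at 38.1 CPM in WT and 476 in the DKO (Cyp27a1 KO 100.4, Cyp3a KO 179). Sqle, squalene epoxidase, was at 40.4 CPM in WT, 62.97 with Cyp27a1 lost, 125 with Cyp3a lost and 248 in the DKO. The kinases and the decarboxylase of the arm differed in the same direction. Mvk was 8.37-fold higher, Pmvk 5.24-fold higher and Mvd 10.2-fold higher in the DKO. Fdps was 6.91-fold higher and Acat2, which condenses acetyl-CoA, 6.71-fold higher.

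Among the later enzymes, Lss, which closes the ring to lanosterol, stood at 27.3 CPM in WT, 64.5 and 91.6 in the Cyp27a1 and Cyp3a knockouts, and 337 in the DKO, 12.3-fold higher (11.7 to 13.1). Cyp51, the lanosterol demethylase, stood at 83.6 CPM in WT and 803 in the DKO (Cyp27a1 KO 212, Cyp3a KO 325). Msmo1, which removes the C4 methyl groups, stood at 74.6 CPM in WT, 169 with Cyp27a1 lost, 279.6 with Cyp3a lost and 669 in the DKO. In these 3 genes the Cyp3a KO lay above the Cyp27a1 KO. Nsdhl, Dhcr7, Tm7sf2, Sc5d and Hsd17b7 had log2 folds of 2.81, 2.46, 1.63, 1.56 and 1.39. Ebp, the sterol isomerase, was the member not called, at 155 CPM in WT and 220.1 in the DKO.

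The upstream windows of the sterol genes were read for the core of the sterol regulatory element, the letters CACCCCAC on either strand. RefSeq windows of GRCm38.p6 were available for 6 of the mevalonate genes and 9 of the later enzymes. Within the 250 bases before the start, 2 of 6 mevalonate genes held the letters (Acat2 and Hmgcs1) and 0 of 9 later ones did. In the list of SREBP2 regulation and sterol uptake 0 of 8 genes with a window held them. The share was 2.58% of all 32851 windows and 3.25% of the 8927 measured genes with a window. A gene can have several windows, and the counts for lists are of genes. The Hmgcs1 window (chr13:119690101-119690350, plus strand) is shown because Hmgcs1 carries one of the largest folds of the pathway; capitals mark the matched letters, a description of the sequence and not a measured site.
Hmgcs1: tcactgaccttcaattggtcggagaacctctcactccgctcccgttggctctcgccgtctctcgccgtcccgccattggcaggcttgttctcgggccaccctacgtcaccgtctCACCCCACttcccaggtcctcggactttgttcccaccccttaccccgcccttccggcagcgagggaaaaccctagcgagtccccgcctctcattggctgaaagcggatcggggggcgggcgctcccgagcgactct

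Regulators and carriers of the same system were called in part. In the list of SREBP2 regulation and sterol uptake, 4 of 14 measured members were called higher and 1 lower, with a median log2 fold of 0.54. Stard4, a cholesterol carrier, was 3.098-fold higher (2.96 to 3.25), and Insig1, which retains SREBP in the endoplasmic reticulum and is itself an SREBP target, 2.14-fold higher (2.09 to 2.199). Insig2 was the member called lower, at 789 CPM in WT, 469.6 and 436 in the Cyp27a1 and Cyp3a knockouts, and 345 in the DKO. Srebf2 (log2 fold 0.52), Scap (0.66) and Srebf1 (0.33) were not called. The SREBP genes themselves thus stayed under the 2-fold rule.

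Of 9 measured LXR targets and efflux genes, 4 were called higher and 0 lower, with a median log2 fold of 0.06. The canalicular sterol exporter genes Abcg5 and Abcg8, whose products work as a pair, were both called higher. Abcg5 stood at 63.7 CPM in WT and 194 in the DKO (Cyp27a1 KO 53.2, Cyp3a KO 84.4). Abcg8 had 102 CPM in WT, 88.6 with Cyp27a1 lost, 128 with Cyp3a lost and 294 in the DKO. The single knockouts lay near WT for this pair, the DKO well above. Pltp, the phospholipid transfer protein, had its highest level in the Cyp27a1 KO, with 19.5 CPM in WT, 128 and 46.99 in the Cyp27a1 and Cyp3a knockouts, and 113 in the DKO. Abca1 (log2 fold 0.06) and Lpcat3 (0.00), also LXR targets, stayed near 0.

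Bile acid synthesis genes did not move as a block. Of the 8 measured ring-modifying enzymes, 2 were called higher and 1 lower. Cyp7a1, the rate-limiting enzyme of the neutral route, stood at 22.4 CPM in WT and 173 in the DKO (Cyp27a1 KO 362, Cyp3a KO 41.3), 7.75-fold higher (7.27 to 8.27) in the DKO. Its highest level was therefore in the Cyp27a1 KO and not in the DKO. Cyp7b1, the oxysterol hydroxylase of the acidic route, stood at 231 CPM in WT, 150.2 with Cyp27a1 lost, 209 with Cyp3a lost and 15.4 in the DKO, 15.1-fold lower (14.04 to 16.2), and was low in the DKO alone. Akr1d1, the reductase that sets the A/B ring junction, stood at 130.3 CPM in WT, 309.9 and 283 in the Cyp27a1 and Cyp3a knockouts, and 619 in the DKO, 4.75-fold higher (4.62 to 4.88). Cyp8b1, which adds the 12-hydroxyl group of cholic acid, had a log2 fold of -0.15 on counts and 0.21 on TPM. Cyp39a1, the 24-hydroxycholesterol hydroxylase, was lowest in the single knockouts, with 99.7 CPM in WT and 52.7 in the DKO (Cyp27a1 KO 12.03, Cyp3a KO 13.4). Cyp2c70, which makes muricholic acids, was at 514 CPM in WT and 309.8 in the DKO. Hsd3b7 and Akr1c6 had log2 folds of -0.41 and 0.59. Cyp46a1 and Ch25h, the other listed sterol hydroxylases, were below the filter.

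None of the 11 measured genes of side chain shortening and conjugation was called. The median of that list was -0.32 on counts and 0.06 on TPM, so its sign depends on the scale. Slc27a2, an acyl-CoA synthetase, came nearest to the 2-fold rule at 1751 CPM in WT and 879 in the DKO. Scp2 (log2 fold -0.58), Acnat2 (-0.78), Acot8 (-0.52), Abcd3 (-0.50), Acnat1 (-0.32), Hsd17b4 (-0.29), Baat (0.01), Amacr (0.09), Slc27a5 (0.16) and Acox2 (0.27) lay closer to 0. The genes of the feedback loop were likewise not called, 0 of 7. Nr0b2 stood at 16.3 CPM in WT, 7.87 with Cyp27a1 lost, 46.3 with Cyp3a lost and 24.3 in the DKO, and Nr1h4 at 91.6 CPM in WT and 66.5 in the DKO. Hnf4a had a log2 fold of -0.76, Nr5a2 0.31, Fgfr4 -0.21, Klb -0.07 and Rxra -0.12. None of the 7 measured genes of the loop thus passed the 2-fold rule. Slc51b, also on that list, was below the filter, and its levels are given with the export genes.

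**Figure D2:**
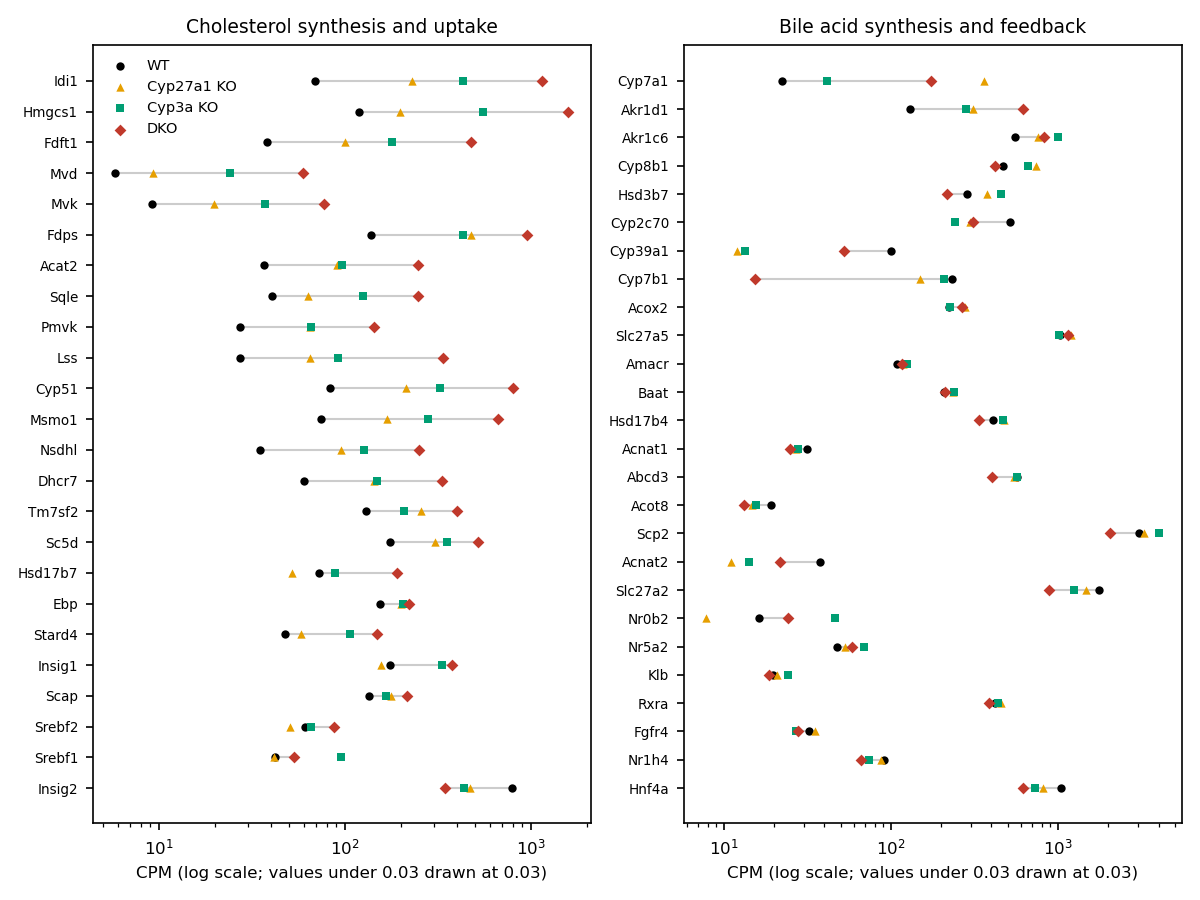
CPM in the 4 libraries on a log axis for genes named in the text, with cholesterol synthesis, its regulators and sterol uptake on the left and bile acid synthesis and feedback on the right; the grey line joins WT (black circle) and DKO (red diamond), and orange triangles and green squares are the Cyp27a1 KO and the Cyp3a KO. On the left the DKO lies right of the other 3 libraries for every enzyme drawn, for example Hmgcs1 at 1589 CPM against 119 in WT, while on the right most lines are short apart from Cyp7a1, Akr1d1 and Cyp7b1.

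Transporters of bile acids were called in both directions. Of 9 measured uptake genes, 2 were called higher and 2 lower. Slco1a1, an organic anion transporter that is higher in males, stood at 341 CPM in WT, 78.2 and 478 in the Cyp27a1 and Cyp3a knockouts, and 1.94 in the DKO, 176-fold lower (145 to 215). Slco1a4 stood at 96.1 CPM in WT and 541 in the DKO (Cyp27a1 KO 292, Cyp3a KO 329.9), 5.63-fold higher (5.46 to 5.81). The log2 fold of Slc10a1, the main bile acid uptake carrier, was 0.46, and that of Slco1b2 0.36. Slc10a2, the apical sodium-dependent carrier found on bile duct cells, stood at 36.96 CPM in WT, 32.8 with Cyp27a1 lost, 14.98 with Cyp3a lost and 78.4 in the DKO. Slc22a7, an organic anion transporter, stood at 50.3 CPM in WT, 26.5 and 11.6 in the Cyp27a1 and Cyp3a knockouts, and 9.78 in the DKO, lowest in the DKO. Slco2b1 (0.40) and Slc22a30 (-0.50) were not called. Of 10 export genes, 3 were called higher and 1 lower. Abcc3, a basolateral exporter, stood at 211 CPM in WT and 827 in the DKO (Cyp27a1 KO 624, Cyp3a KO 741), 3.92-fold higher (3.83 to 4.005), and stood at a like level in all 3 knockouts. Abcc4, another basolateral exporter, stood at 3.24 CPM in WT, 22.7 with Cyp27a1 lost, 3.395 with Cyp3a lost and 20.7 in the DKO, with the 2 libraries lacking Cyp27a1 above the other pair. Abcb1a was at 2.75 CPM in WT, 3.37 and 7.19 in the Cyp27a1 and Cyp3a knockouts, and 23.7 in the DKO. The canalicular bile salt pump Abcb11 had a log2 fold of 0.69, Abcc2 0.23 and Abcb4 0.02. Abcg2 (0.22), Abcc6 (0.15) and Atp8b1 (-0.13) were near 0 too, and Abcb1b, at 1.72 CPM in WT and 0.554 in the DKO, was the gene called lower. Of the subunits of the basolateral bile acid exporter, Slc51a and Slc51b, both below the filter, Slc51b stood at 0.322 CPM in WT and 1.98 in the DKO (Cyp27a1 KO 0.0803, Cyp3a KO 0.0399).

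Lipid genes divided into synthesis and oxidation. In the lipogenesis list 7 of 15 measured members were called higher and 0 lower, with a median log2 fold of 0.95. Elovl6, the elongase of long-chain fatty acids, stood at 19.2 CPM in WT, 78.4 with Cyp27a1 lost, 79.9 with Cyp3a lost and 160.1 in the DKO, 8.35-fold higher (7.79 to 8.95). Acss2, which makes acetyl-CoA from acetate, was 6.71-fold higher (6.51 to 6.91), Acly 4.38-fold higher (4.23 to 4.53) and Acaca 3.52-fold higher (3.34 to 3.71). Fasn stood at 139 CPM in WT, 205 and 226 in the Cyp27a1 and Cyp3a knockouts, and 477 in the DKO. Scd1, the stearoyl-CoA desaturase, was high in both libraries without Cyp27a1, with 3755 CPM in WT and 10640.0 in the DKO (Cyp27a1 KO 9689.8, Cyp3a KO 3525). Thrsp, a lipogenic cofactor, showed the same pair on top, at 159 CPM in WT, 503 with Cyp27a1 lost, 225 with Cyp3a lost and 592 in the DKO. Not every member was higher: Me1 had a log2 fold of -0.62 and Acacb -0.56, and Dgat2 sat at 0.03.

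The genes of PPARalpha and fatty acid oxidation lay on the other side. Of 22 measured members, 11 were called lower and 0 higher, with a median log2 fold of -0.97 on counts and -0.58 on TPM, where 7 were lower. Cyp4a14, a fatty acid omega-hydroxylase, stood at 2185 CPM in WT, 325 and 582 in the Cyp27a1 and Cyp3a knockouts, and 116 in the DKO, 18.8-fold lower (18.4 to 19.3). Cyp4a10 stood at 1711 CPM in WT and 238 in the DKO (Cyp27a1 KO 747, Cyp3a KO 853). Acot1, a cytosolic acyl-CoA thioesterase, stood at 208 CPM in WT, 100.1 with Cyp27a1 lost, 87.6 with Cyp3a lost and 34.1 in the DKO. All 3 genes were highest in WT and lowest in the DKO. Pdk4, the kinase that inhibits pyruvate dehydrogenase, was 4.601-fold lower (4.21 to 5.03). Fgf21, a hormone made by the fasted liver, stood at 3.43 CPM in WT, 0.341 and 0.719 in the Cyp27a1 and Cyp3a knockouts, and 0.203 in the DKO. Among genes of mitochondrial fatty acid oxidation, Cpt1a, Acadm and Hadha differed less, with log2 folds of -0.10, -0.14 and -0.27. Ppara itself stood at -0.36.

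Lipid droplet coat genes were lower. Plin4, Plin5 and Plin2 were 12.2-fold lower, 5.52-fold lower and 3.12-fold lower in the DKO. G0s2, the inhibitor of adipose triglyceride lipase, stood at 72.9 CPM in WT and 9.29 in the DKO (Cyp27a1 KO 32.4, Cyp3a KO 91.01). Cd36, the fatty acid translocase, was the 1 member of 13 called higher, at 21.9 CPM in WT, 136 with Cyp27a1 lost, 37.8 with Cyp3a lost and 174 in the DKO, with both libraries lacking Cyp27a1 above the others. None of 15 apolipoprotein and lipoprotein assembly genes was called. Their median log2 fold was -0.39 on counts and -0.14 on TPM, and Apoa1 (-0.07), Apob (-0.22) and Mttp (0.01) lay near 0.

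Xenobiotic metabolism genes were higher in several families. Among the Cyp2a and Cyp2b genes 6 of 7 measured members were called higher, but 2 of the 6 passed the filter through the DKO alone. Of the 3 members with at least 1 CPM in WT, 2 were called higher. Cyp2a5, a coumarin hydroxylase, stood at 427 CPM in WT, 3004 and 1309.7 in the Cyp27a1 and Cyp3a knockouts, and 7399.9 in the DKO, 17.3-fold higher (17.1 to 17.6). Cyp2b10, the gene commonly read as a marker of CAR activity, stood at 99.3 CPM in WT and 995 in the DKO (Cyp27a1 KO 223, Cyp3a KO 353), 10.02-fold higher (9.72 to 10.3). In both genes all 3 knockouts lay above WT and the DKO was highest. Cyp2b9 and Cyp2b13, which are female-biased, were the 2 that passed the filter through the DKO alone. Cyp2b9 stood at 0.3003 CPM in WT, 0.1004 with Cyp27a1 lost, 0.0799 with Cyp3a lost and 93.2 in the DKO. Cyp2b13 stood at 0.107 CPM in WT, 0.1004 and 0.0399 in the Cyp27a1 and Cyp3a knockouts, and 41.8 in the DKO. In the Cyp2c family 9 of 13 were called higher and 0 lower. Cyp2c55, a PXR and CAR target, stood at 9.37 CPM in WT and 1016 in the DKO (Cyp27a1 KO 243, Cyp3a KO 455), 108-fold higher (98.6 to 119). Cyp2c29 stood at 1129 CPM in WT, 2965 with Cyp27a1 lost, 4649 with Cyp3a lost and 8631 in the DKO. Cyp2c40 and Cyp2c69 were highest in the Cyp3a KO, with 161 and 40.1 CPM against 80.9 and 14.9 in the DKO. The Cyp2d and Cyp2j genes were not part of this: 0 of 9 were called higher and 2 lower.

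The receptors themselves stood near 0, with log2 folds of 0.15 for Nr1i2 and 0.07 for Nr1i3. Por, the electron donor of microsomal P450 enzymes, had 0.51, and Alas1, the first enzyme of haem synthesis, 0.73. Ahr was called higher at 22.1 CPM in WT and 70.4 in the DKO, as was Ephx1 at 317 CPM in WT and 685 in the DKO.

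Conjugating enzymes were mixed by family. Sult2a1 and Sult2a2, sulfotransferases of the group that sulfates bile acids and steroids, held the 2 largest log2 folds upward of the whole comparison. Sult2a1 stood at 2.55 CPM in WT, 0.442 and 0.01997 in the Cyp27a1 and Cyp3a knockouts, and 728 in the DKO, a 285-fold higher (238 to 344) level in the DKO that rests on 119 counts in WT, 22 and 1 in the Cyp27a1 and Cyp3a knockouts, and 39439 in the DKO. Sult2a2 stood at 2.14 CPM in WT and 595 in the DKO (Cyp27a1 KO 0.361, Cyp3a KO 0.1198). Sult2a5 stood at 0.472 CPM in WT, 0.1205 with Cyp27a1 lost, 0.01997 with Cyp3a lost and 128 in the DKO. In these 3 genes both single knockouts lay below WT and the DKO far above it. Sult2a2 and Sult2a5 passed the filter through the DKO alone, so their high value there is a condition of being counted. Sult2a7 differed, with 0.622 CPM in WT, 53.7 and 68.5 in the Cyp27a1 and Cyp3a knockouts, and 157 in the DKO, so that every knockout was far above WT. Sult2a8, the remaining measured member of the group, was lower at 509 CPM in WT and 151 in the DKO (Cyp27a1 KO 427, Cyp3a KO 803). Sult1e1, the oestrogen sulfotransferase, stood at 0.4504 CPM in WT, 3.07 with Cyp27a1 lost, 0.0999 with Cyp3a lost and 27.1 in the DKO. Papss2, which makes the sulfate donor, was higher in every knockout, with 170.0 CPM in WT, 342 and 404 in the Cyp27a1 and Cyp3a knockouts, and 555 in the DKO. Sequences of the Sult2a copies are close, so the split of reads among them is uncertain.

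Of 20 glutathione transferase genes, 9 were called higher and 2 lower. Gstm3 stood at 51.3 CPM in WT and 7182 in the DKO (Cyp27a1 KO 1512, Cyp3a KO 1504), 140.0-fold higher (134 to 146). Gstm1 stood at 971 CPM in WT, 3559 with Cyp27a1 lost, 2535 with Cyp3a lost and 7509 in the DKO. Gsta1 stood at 4.61 CPM in WT, 90.02 and 35.2 in the Cyp27a1 and Cyp3a knockouts, and 384 in the DKO, 83.2-fold higher (72.8 to 95.7). All 3 were higher in each knockout than in WT and highest in the DKO. Gstp1, a male-biased member, was lower at 2374 CPM in WT and 320.4 in the DKO (Cyp27a1 KO 982, Cyp3a KO 1685), 7.41-fold lower (7.29 to 7.53). Mgst1, Gstz1 and Gsto1 had log2 folds of 0.18, 0.21 and 0.12. Among 16 genes of glucuronidation, 4 were higher and 5 lower. Genes of the Ugt1a locus share exons, so their reads are hard to divide. Those higher included Ugt1a5 (7.06-fold higher), Ugt1a9 (4.33-fold higher) and Ugt1a1 (2.47-fold higher), with Ugdh, which makes the sugar donor, at 110.1 CPM in WT and 657 in the DKO. Those lower included Ugt2b38 (7.65-fold lower) and Ugt1a6a (3.21-fold lower). Of 13 carboxylesterase genes 3 were higher and 4 lower. Ces2a led the first group at 607 CPM in WT, 1853 with Cyp27a1 lost, 3033 with Cyp3a lost and 4399.7 in the DKO. Ces3a, in the second, stood at 1918 CPM in WT, 1802 and 2215 in the Cyp27a1 and Cyp3a knockouts, and 452 in the DKO and was low in the DKO alone.

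Of 14 flavin monooxygenase and aldehyde dehydrogenase genes, 6 were higher and 0 lower. Aldh1a1, a retinal dehydrogenase, stood at 798 CPM in WT and 3635 in the DKO (Cyp27a1 KO 2752, Cyp3a KO 2217). Aldh1a7 stood at 113 CPM in WT, 445 with Cyp27a1 lost, 313 with Cyp3a lost and 674 in the DKO. These 2 aldehyde dehydrogenases were above WT in all 3 knockouts. Of 11 NRF2 target and antioxidant genes, 3 were called higher, namely Nqo1 (4.46-fold higher), Srxn1 (3.37-fold higher) and Pgd (2.58-fold higher). Hmox1 (-0.10), Txnrd1 (-0.15) and Gclc (-0.58) gave log2 folds at or below 0 on counts, with 0.27, 0.23 and -0.22 on TPM.

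**Figure D3:**
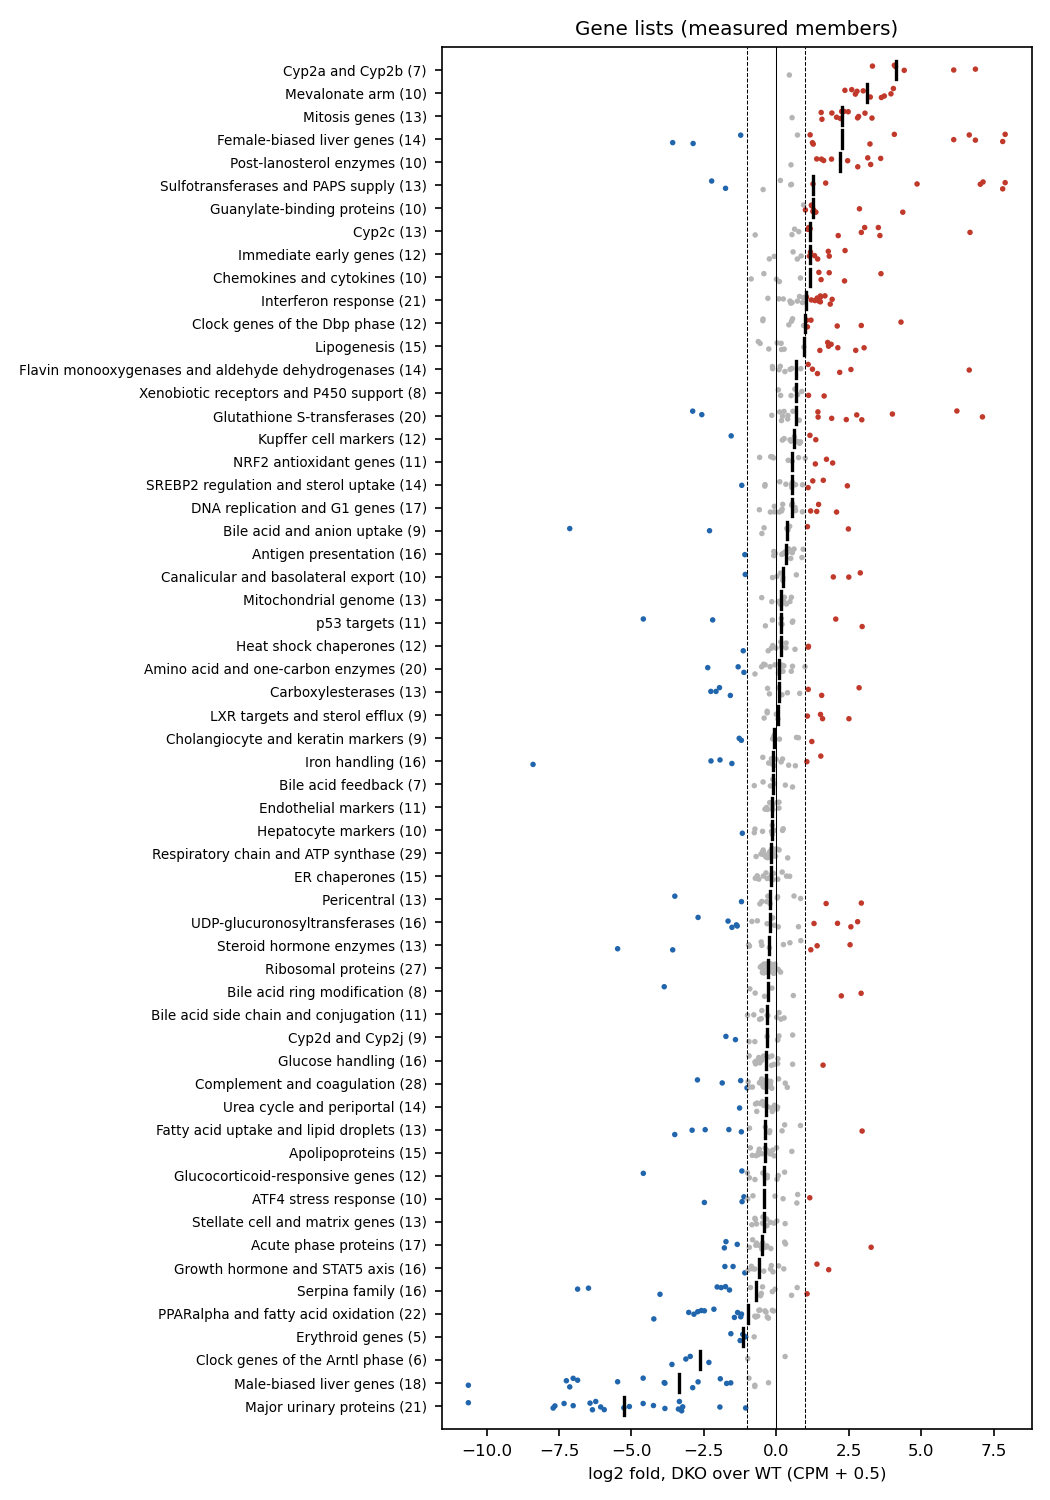
Log2 fold of DKO over WT for the measured members of each gene list with at least 5 of them, the list of deleted genes left out. Points are genes, coloured red or blue where called higher or lower, the black bar is the list median, and dashed lines mark 2-fold. Lists run from the Mup genes (median -5.26) at the bottom to the Cyp2a and Cyp2b genes (4.11, with 2 of 7 points past the filter through the DKO alone) at the top, with the ribosomal protein, respiratory chain and mitochondrial genome lists close to 0.

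Genes that separate male from female liver were altered in both directions in this male liver. Of 18 measured male-biased genes, 14 were called lower and 0 higher, with a median log2 fold of -3.37. Mup7, Mup12, Mup20 and Mup21 are among the 18 and also in the Mup list below. Members such as Slco1a1, Cyp7b1 and Gstp1 are in other lists too, so the counts of these lists are not independent. Elovl3, an elongase of very long fatty acids, stood at 802 CPM in WT, 428 and 361 in the Cyp27a1 and Cyp3a knockouts, and 4.78 in the DKO, 168-fold lower (148 to 190.3). Hsd3b5, a male-specific steroid reductase, stood at 27.6 CPM in WT and 0.129 in the DKO (Cyp27a1 KO 10.9, Cyp3a KO 139), so that it was higher than WT in the Cyp3a KO and at 7 counts in the DKO. Serpina1e stood at 10558 CPM in WT, 5437 with Cyp27a1 lost, 6080.0 with Cyp3a lost and 90.4 in the DKO, 117-fold lower (114 to 120.1). Cyp4a12a (-0.74), Cyp4a12b (-0.94), Cyp2d9 (-0.74) and C8a (-0.27) were the 4 not called, the values being log2 folds. Not all male-biased genes were therefore low in the DKO, where Cyp4a12a and Cyp2d9 stood at 278 and 1220.4 CPM.

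Of 18 female-biased genes on the list, 14 passed the filter, 3 of them (Cyp2b9, Cyp2b13 and Sult2a2) through the DKO alone. Among the 10 with at least 1 CPM in WT, 6 were called higher and 3 lower. The 3 lower were Cyp17a1 (15.1-fold lower), Acot3, a PPARalpha target (2.61-fold lower), and Cyp3a44, which lies in the deleted cluster. The 6 higher include Cyp3a41a, whose single-gene value is uncertain as said of that family, and Sult2a2, which passed the filter through the DKO alone. Abcd2, a peroxisomal transporter, stood at 2.85 CPM in WT, 8.15 and 18.4 in the Cyp27a1 and Cyp3a knockouts, and 31.01 in the DKO. Cyp2a4, a steroid 15-hydroxylase, stood at 0.408 CPM in WT and 14.8 in the DKO (Cyp27a1 KO 1.93, Cyp3a KO 1.098). Both were above WT in each knockout and highest in the DKO. Prlr, the prolactin receptor, which female liver expresses at higher levels, stood at 33.2 CPM in WT, 59.6 with Cyp27a1 lost, 80.3 with Cyp3a lost and 118 in the DKO. The female-biased genes below the filter were Sult3a1, A1bg, Cux2 and Hao2. Sult3a1 held 2.82 CPM in the DKO and at most 0.01997 in the other libraries, while A1bg at 0.129 and Cux2 at 0.535 CPM in the DKO were low in all 4. The female-biased genes were thus not all high in the DKO.

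The Mup genes, which code for pheromone-binding proteins secreted in urine, had the largest drop in summed CPM of the 64 lists. All 21 measured members were called lower on counts, and 20 were at least 2-fold lower on TPM. Their summed level was 91477 CPM in WT, 38392 and 79920.1 in the Cyp27a1 and Cyp3a knockouts, and 2440.1 in the DKO. The Cyp27a1 KO was thus also below WT, while the Cyp3a KO was close to it. Mup7 stood at 28047 CPM in WT, 3649.6 and 20285 in the Cyp27a1 and Cyp3a knockouts, and 17.2 in the DKO, 1632-fold lower (1530.4 to 1742). Mup20 (darcin) stood at 7729 CPM in WT and 537 in the DKO (Cyp27a1 KO 2067, Cyp3a KO 2069). Mup19 was above WT in both single knockouts, with 13599 CPM in WT, 19855 with Cyp27a1 lost, 19942 with Cyp3a lost and 1306 in the DKO. With 0 DKO counts and a floor of 3 counts, Mup8 was at least 594-fold lower. The smallest difference was that of Mup5, 2.23-fold lower. These genes are near copies of each other, so the family sum is firmer than any member.

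Genes of the growth hormone and STAT5 axis were called in both directions. Of 16 measured, 2 were called higher (12.5%, against 6.0% of all genes) and 3 lower (18.8%, against 4.02%). On TPM 2 were higher and 1 lower. Log2 folds of the list ran from -1.78 to 1.81. Igf1 stood at 381 CPM in WT, 339 and 387 in the Cyp27a1 and Cyp3a knockouts, and 179 in the DKO, 2.13-fold lower (2.08 to 2.18), with a TPM log2 fold of -0.64, and Igfbp3 was 2.92-fold lower. Esr1 was higher at 7.21 CPM in WT and 19.9 in the DKO (Cyp27a1 KO 15.4, Cyp3a KO 21.2). Ghr (-0.20), Jak2 (0.08) and Stat5b (0.26) had log2 folds near 0. Bcl6, a repressor of female-biased genes, had 10.1 CPM in WT, 8.27 with Cyp27a1 lost, 90.1 with Cyp3a lost and 5.32 in the DKO. Socs2, a STAT5 target, had 7.85 CPM in WT, 34.4 and 7.97 in the Cyp27a1 and Cyp3a knockouts, and 4.49 in the DKO. Each of this pair peaked in a different single knockout. The STAT site TTCNNNGAA, which can overlap the interferon letters given further on, was found on either strand in the windows of 1 of 11 male-biased genes, C8a, and 0 of 9 female-biased genes, against 7.02% of all windows. Among 13 steroid hormone enzymes 3 were higher and 2 lower. Hsd17b6 had the largest log2 fold upward and stood at 73.4 CPM in WT and 431 in the DKO (Cyp27a1 KO 60.3, Cyp3a KO 411), and both libraries without Cyp3a stood above the other pair.

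**Figure D4:**
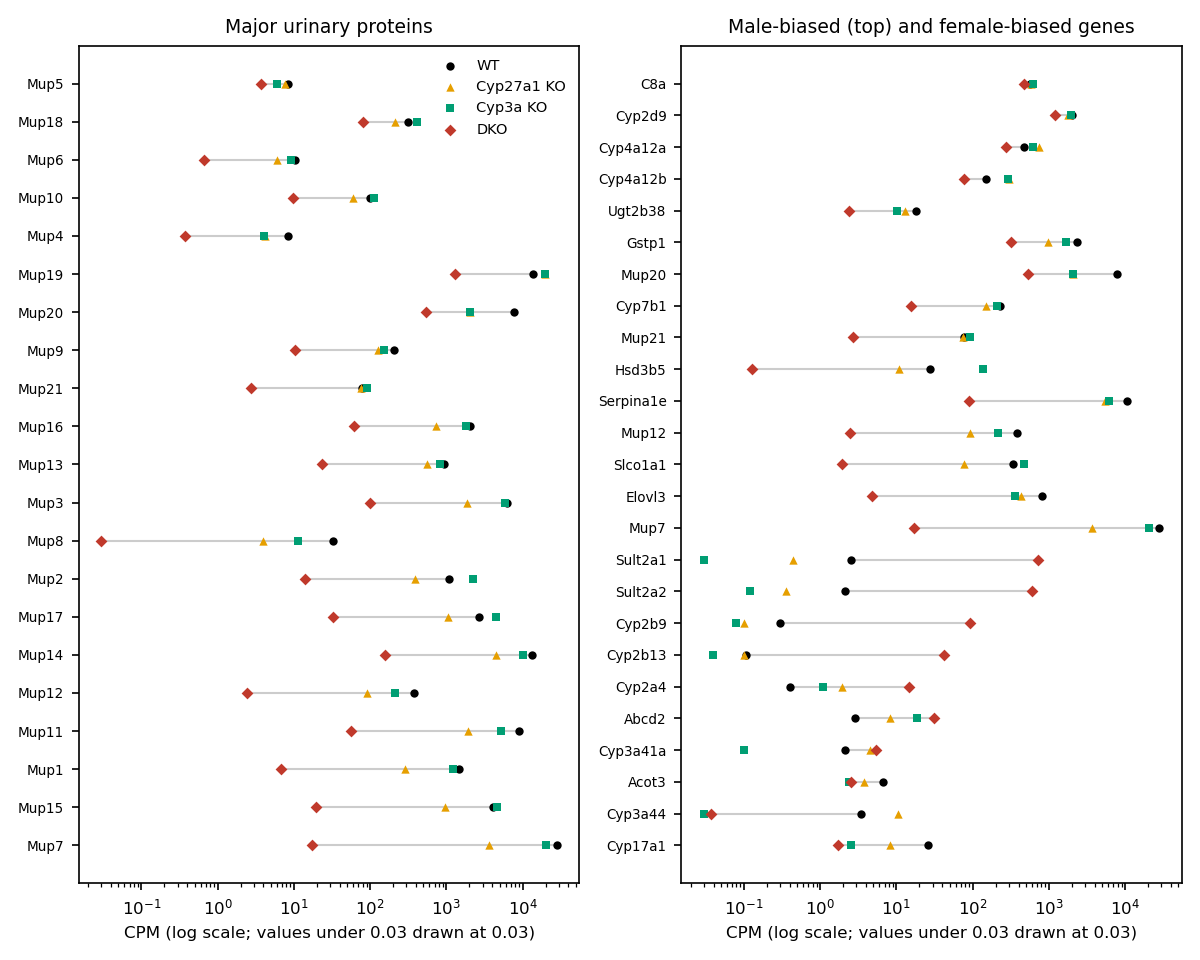
CPM in the 4 libraries on a log axis for the 21 Mup genes (left) and for male-biased and female-biased genes named in the text (right, male-biased at the top), with WT as black circles, the Cyp27a1 KO as orange triangles, the Cyp3a KO as green squares and the DKO as red diamonds; values under 0.03 CPM are drawn at 0.03. The DKO lies leftmost for all 21 Mup genes, and at the right end for Sult2a1 (728 CPM) and Sult2a2.

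Secreted plasma proteins were lower in part. In the Serpina family 7 of 16 measured members were called lower and 1 higher. Serpina3k, a kallikrein-binding protein, stood at 15657 CPM in WT, 12579 with Cyp27a1 lost, 11329 with Cyp3a lost and 3801 in the DKO. Serpina1c stood at 9126 CPM in WT, 6038 and 7049 in the Cyp27a1 and Cyp3a knockouts, and 2974 in the DKO, while its copies Serpina1b (-0.14) and Serpina1a (-0.48) had small log2 folds. Serpina6, the corticosteroid-binding globulin, was the member called higher, 2.09-fold higher (2.01 to 2.18). Of 17 acute phase genes, 1 was higher and 3 lower. Saa4 and Saa1 were 3.48-fold lower and 3.42-fold lower, Orm3 stood at 2.66 CPM in WT and 30.03 in the DKO (Cyp27a1 KO 16.8, Cyp3a KO 9.59), and the other 13 were not called, such as Hp (-0.50) and Crp (-0.19). Of 28 complement and coagulation genes, 0 were higher and 4 lower. C9, part of the membrane attack complex, stood at 596 CPM in WT, 441 with Cyp27a1 lost, 362 with Cyp3a lost and 89.9 in the DKO. C6, of the same complex, stood at 259 CPM in WT, 240.5 and 251 in the Cyp27a1 and Cyp3a knockouts, and 70.5 in the DKO, and both were at their lowest in the DKO. C8b and Mbl1 were near the rule at 2.35-fold lower and 2.02-fold lower. C3 (log2 fold 0.38), F2 (-0.38) and Serpinc1 (-0.19) were not called.

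Iron genes were led by hepcidin. Hamp, which codes for this iron hormone, stood at 642 CPM in WT and 1.403 in the DKO (Cyp27a1 KO 112, Cyp3a KO 272), 457-fold lower (365 to 581), on 29910 counts in WT, 5574 and 13633 in the Cyp27a1 and Cyp3a knockouts, and 76 in the DKO. Each single knockout was below WT, and the DKO was far below both. Its paralogue Hamp2 was 4.05-fold lower. Id1, a target of the BMP signal that also drives Hamp, stood at 9.99 CPM in WT, 4.22 with Cyp27a1 lost, 6.83 with Cyp3a lost and 1.698 in the DKO. Smad7, another such target, stood at 14.2 CPM in WT, 8.35 and 14.1 in the Cyp27a1 and Cyp3a knockouts, and 4.56 in the DKO, near WT in the Cyp3a KO. Bmp6, a ligand of that signal made by endothelial cells, had a log2 fold of 0.21, and Tmprss6, Tfr2 and Hfe had -0.26, -0.15 and 0.66. Tfrc, the transferrin receptor, was higher at 17.1 CPM in WT and 50.6 in the DKO (Cyp27a1 KO 26.1, Cyp3a KO 25.4), and the ferritin heavy chain gene Fth1 at 1063 CPM in WT and 2207 in the DKO.

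Core functions of the hepatocyte differed little. None of 27 ribosomal protein genes, 29 genes of the respiratory chain and ATP synthase, 13 genes of the mitochondrial genome or 15 endoplasmic reticulum chaperones was called. Their median log2 folds were -0.27, -0.17, 0.18 and -0.19 on counts. On TPM they were 0.10, 0.19, 0.54 and 0.19, so that the sign of 3 of the 4 turns with the scale. Of 10 hepatocyte markers 1 was called, Ttr (transthyretin), at 4129 CPM in WT, 2723 with Cyp27a1 lost, 3061 with Cyp3a lost and 1831 in the DKO. Alb was at 72499 CPM in WT and 65721 in the DKO, Asgr1 at 352 CPM in WT and 409 in the DKO and Cps1 at 4494 CPM in WT and 4083 in the DKO. The liver label thus held in both libraries.

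Among 14 urea cycle and periportal genes, Sds, a serine dehydratase, was the 1 called, 2.41-fold lower. Of 16 genes of glucose handling the 1 called was Slc2a2, the GLUT2 transporter, at 128 CPM in WT, 226 and 236 in the Cyp27a1 and Cyp3a knockouts, and 393 in the DKO. Pck1 (0.05) and G6pc (-0.72) were not called. Of 13 pericentral genes, Cyp2c29 and Oat were higher, Oat at 572 CPM in WT and 1883 in the DKO (Cyp27a1 KO 1988, Cyp3a KO 1678). Axin2 was lower, as was Cyp27a1, which is a deleted gene and so is low by genotype. Glul (0.03), Cyp1a2 (-0.21) and Cyp2e1 (-0.57) were not called. On TPM 3 of the 13 were at least 2-fold higher and 1 lower. Of 20 amino acid and one-carbon enzymes 0 were higher and 3 lower: Sdsl (5.48-fold lower), Cbs (2.498-fold lower) and Tdo2 (2.17-fold lower). Tdo2 on TPM had a log2 fold of -0.84.

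Clock genes were offset between the libraries. The mammalian clock sets Arntl and Clock against the Per and Cry genes and the PAR bZIP factors such as Dbp, and liver levels of these genes swing over the day. Of 6 genes that peak with Arntl, 4 were called lower and 0 higher, and of 12 that peak with Dbp, 6 were called higher and 0 lower. Arntl (BMAL1) stood at 29.6 CPM in WT, 28.9 with Cyp27a1 lost, 10.6 with Cyp3a lost and 1.98 in the DKO, 14.97-fold lower (12.3 to 18.4). Nfil3, the repressor that opposes Dbp, stood at 64.8 CPM in WT, 75.9 and 39.2 in the Cyp27a1 and Cyp3a knockouts, and 6.996 in the DKO. Npas2, a paralogue of Clock, stood at 4.87 CPM in WT and 0.185 in the DKO (Cyp27a1 KO 6.04, Cyp3a KO 0.739). In these 3 genes WT and the Cyp27a1 KO lay together at the high end, with the Cyp3a KO below them and the DKO lowest. Dbp stood at 2.06 CPM in WT, 1.22 with Cyp27a1 lost, 28.9 with Cyp3a lost and 50.03 in the DKO, 24.3-fold higher (19.8 to 30.1). Per3 stood at 2.53 CPM in WT, 2.45 and 5.15 in the Cyp27a1 and Cyp3a knockouts, and 22.6 in the DKO. Per2 stood at 5.94 CPM in WT and 27.2 in the DKO (Cyp27a1 KO 7.01, Cyp3a KO 8.13). For these 3 the DKO was the highest library and the Cyp3a KO came second. Nr1d1 (REV-ERBalpha) broke the order, with its highest level, 143 CPM, in the Cyp3a KO, against 13.6 in WT, 29.2 in the DKO and 14.8 in the Cyp27a1 KO. Per1 (-0.47) and Hlf (-0.46) had log2 folds below 0. The hour of collection was not given in the sources used here, and its part in these differences was not tested.

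The upstream windows of these genes were read for the D-box TTATGTAA, the element bound by Dbp and Nfil3, on both strands. Of 10 Dbp-phase genes with a RefSeq window, 1 held it within 250 bases, Per3, with 2 matches. Of 5 Arntl-phase genes with a window 0 did, against 0.819% of all windows. The E-box CACGTG, bound by Clock and Arntl, was present in 4 of the 10 (Tef, Per1, Ciart and Bhlhe41). It was held by 6.02% of all windows and by 9.91% of measured genes with a window. The Per3 window (chr4:151044666-151044915, minus strand, written 5′ to 3′ of the gene) is shown because Per3 carries 2 copies of the D-box and 1 of the larger clock folds; capitals mark the D-box letters.
Per3: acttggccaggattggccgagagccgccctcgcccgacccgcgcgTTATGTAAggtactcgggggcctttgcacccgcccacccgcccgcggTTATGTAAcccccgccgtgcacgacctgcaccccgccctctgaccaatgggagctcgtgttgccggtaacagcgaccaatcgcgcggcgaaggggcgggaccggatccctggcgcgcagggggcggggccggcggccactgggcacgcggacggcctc

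Of 12 genes induced by glucocorticoids, 2 were called lower and 0 higher, with a median log2 fold of -0.42. On TPM 1 was lower and the median was -0.07. Cdkn1a, the cell cycle inhibitor p21, stood at 194 CPM in WT, 126 with Cyp27a1 lost, 25.8 with Cyp3a lost and 7.55 in the DKO, 25.6-fold lower (23.2 to 28.4). Dusp1 was 2.29-fold lower, and Tsc22d3 (-1.0) and Fkbp5 (-0.93) had log2 folds just short of the rule. Of 12 immediate early genes, 7 were called higher and 0 lower. Egr1 stood at 15.1 CPM in WT, 121 and 92.6 in the Cyp27a1 and Cyp3a knockouts, and 80.3 in the DKO. Junb stood at 16.5 CPM in WT and 45.1 in the DKO (Cyp27a1 KO 42.1, Cyp3a KO 66.1). Myc stood at 9.74 CPM in WT, 30.4 with Cyp27a1 lost, 12.96 with Cyp3a lost and 34.98 in the DKO. These were higher than WT in the single knockouts too, and Egr1 and Junb were not highest in the DKO. Of 10 ATF4 response genes 1 was higher and 3 lower, and of 12 heat shock genes 2 were higher and 1 lower. Gadd45b, a stress-inducible gene of the p53 list, stood at 8.51 CPM in WT, 36.5 and 46.1 in the Cyp27a1 and Cyp3a knockouts, and 69.8 in the DKO. Its relative Gadd45a stood at 1.31 CPM in WT and 6.996 in the DKO (Cyp27a1 KO 1.87, Cyp3a KO 5.87), with the libraries lacking Cyp3a on top. Gadd45g went the other way, with 110.4 CPM in WT, 76.8 with Cyp27a1 lost, 16.04 with Cyp3a lost and 23.7 in the DKO. Trp53 (0.20), Mdm2 (-0.38) and Bax (-0.14) had log2 folds near 0.

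Transcripts of dividing cells were higher at low levels. The summed level of the 18 mitosis genes was 10.1 CPM in WT, 10.98 and 9.35 in the Cyp27a1 and Cyp3a knockouts, and 74.2 in the DKO. Of the 18, 13 passed the filter and 10 of these passed it through the DKO alone, so the count of calls among them carries no weight. Mki67, a proliferation marker, stood at 0.708 CPM in WT, 1.49 and 1.298 in the Cyp27a1 and Cyp3a knockouts, and 7.94 in the DKO. Top2a, a topoisomerase of dividing cells, had 0.922 CPM in WT and 7.44 in the DKO (Cyp27a1 KO 1.12, Cyp3a KO 1.098), and the DKO was again the highest. Ccnb1, the mitotic cyclin, stood at 0.193 CPM in WT, 0.221 with Cyp27a1 lost, 0.2197 with Cyp3a lost and 5.28 in the DKO, on 9 counts in WT, 11 and 11 in the Cyp27a1 and Cyp3a knockouts, and 286 in the DKO. Cdc20, which activates the anaphase complex, stood at 0.279 CPM in WT, 0.241 and 0.1997 in the Cyp27a1 and Cyp3a knockouts, and 7.18 in the DKO. In each of these the other 3 libraries stood between 0.193 and 1.49 CPM and did not reach the DKO. Ccnb1 and Cdc20 passed the filter through the DKO alone, so their high value there is a condition of being counted. Ccnd1, the G1 cyclin, stood at 7.68 CPM in WT and 34.1 in the DKO (Cyp27a1 KO 5.12, Cyp3a KO 9.43), 4.44-fold higher (3.96 to 4.98). Of 17 DNA replication and G1 genes 4 were called higher (Ccnd1, Mcm6, Lig1 and Mcm5) and 0 lower, while Pcna (-0.07) and Mcm7 (-0.59) had log2 folds below 0.

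The cell cycle homology region TTTGAA was looked for in the same way. It was present in 6 of 10 mitosis genes with a window (Mki67, Top2a, Ccnb2, Cdk1, Cdc20 and Ube2c). The share was 16% of all windows and 13.0% of measured genes with a window. Only windows of the 13 measured mitosis genes were read. Of these genes 10, Cdc20 among them, passed the filter through the DKO alone. The Cdc20 window (chr4:118437344-118437593, minus strand, written 5′ to 3′ of the gene) is shown because Cdc20 has the largest log2 fold of the list, 3.30; its match, in capitals, begins 18 bases before the start.
Cdc20: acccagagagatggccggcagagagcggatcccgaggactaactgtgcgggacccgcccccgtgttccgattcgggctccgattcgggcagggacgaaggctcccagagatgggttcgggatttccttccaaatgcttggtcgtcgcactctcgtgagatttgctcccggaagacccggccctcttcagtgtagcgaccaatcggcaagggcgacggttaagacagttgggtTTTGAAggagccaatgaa

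Genes of the interferon response were moderately higher. Of 21 measured, 11 were called higher and 0 lower, with a median log2 fold of 1.04, and 9 of 10 guanylate-binding protein (Gbp) genes were called higher with a median of 1.25. Ifit1, which binds foreign RNA, stood at 1.82 CPM in WT, 2.79 with Cyp27a1 lost, 4.83 with Cyp3a lost and 7.94 in the DKO, 4.35-fold higher (3.44 to 5.56). Irf7, the transcription factor that amplifies the response, stood at 17.7 CPM in WT, 31.1 and 27.6 in the Cyp27a1 and Cyp3a knockouts, and 51.6 in the DKO. Ddx58, the RNA sensor RIG-I, stood at 7.36 CPM in WT and 24.7 in the DKO (Cyp27a1 KO 11.9, Cyp3a KO 14.2). For these 3 genes all knockouts lay above WT, with the DKO highest. Stat2 (0.09) and Bst2 (-0.29) were not called. The summed Gbp level was 17.8 CPM in WT, 36.6 and 57.5 in the Cyp27a1 and Cyp3a knockouts, and 79.8 in the DKO. Gbp11 gave 0.879 CPM in WT, 3.35 with Cyp27a1 lost, 2.04 with Cyp3a lost and 27.9 in the DKO, so much of the DKO sum is this gene. Gbp10 was highest in the Cyp3a KO, with 0.965 CPM in WT, 4.38 and 17.2 in the Cyp27a1 and Cyp3a knockouts, and 10.2 in the DKO. Gbp5, at 1.22 CPM in WT and 2.81 in the DKO, was the member not called.

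The core of the interferon-stimulated response element, GAAANNGAA, was looked for on either strand. It was present in 9 of 15 interferon genes with a window and in all 4 such Gbp genes (Gbp2, Gbp3, Gbp5 and Gbp7). Among all windows 7.13% held it, and among measured genes with a window 7.72%. The Ifit1 window (chr19:34640639-34640888, plus strand), with 3 overlapping or close matches, and the Gbp2 window (chr3:142620413-142620662, plus strand), with 1, are set side by side as an example of each list; capitals mark the letters, which lie here on the other strand and so appear as their reverse complement.
Ifit1: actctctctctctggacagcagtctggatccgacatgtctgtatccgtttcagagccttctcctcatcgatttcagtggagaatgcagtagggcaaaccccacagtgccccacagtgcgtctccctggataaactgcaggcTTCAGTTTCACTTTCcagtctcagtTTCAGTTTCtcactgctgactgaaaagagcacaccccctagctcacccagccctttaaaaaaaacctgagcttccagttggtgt
Gbp2: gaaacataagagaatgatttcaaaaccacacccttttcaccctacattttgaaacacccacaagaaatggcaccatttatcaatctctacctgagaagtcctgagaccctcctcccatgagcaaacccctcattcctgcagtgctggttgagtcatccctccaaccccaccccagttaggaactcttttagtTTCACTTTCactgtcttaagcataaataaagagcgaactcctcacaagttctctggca

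Antigen presentation genes were hardly called, with 0 of 16 higher and 1 lower, H2-Q7 at 52.7 CPM in WT and 24.6 in the DKO. B2m (-0.07), H2-K1 (-0.03) and Tap1 (0.55) were not called. Of 10 measured chemokine and cytokine genes 5 were higher and 0 lower, but of the 7 with at least 1 CPM in WT 2 were higher. Ccl9 stood at 36.7 CPM in WT and 189.7 in the DKO (Cyp27a1 KO 59.5, Cyp3a KO 81.1). Cxcl1, a chemokine that recruits neutrophils, stood at 0.408 CPM in WT, 2.53 with Cyp27a1 lost, 3.48 with Cyp3a lost and 10.6 in the DKO. Il1rn, the antagonist of the interleukin 1 receptor, stood at 1.84 CPM in WT, 2.55 and 2.34 in the Cyp27a1 and Cyp3a knockouts, and 7.81 in the DKO. All 3 were lowest in WT and highest in the DKO. Il1b passed the filter through the DKO alone.

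**Figure D5:**
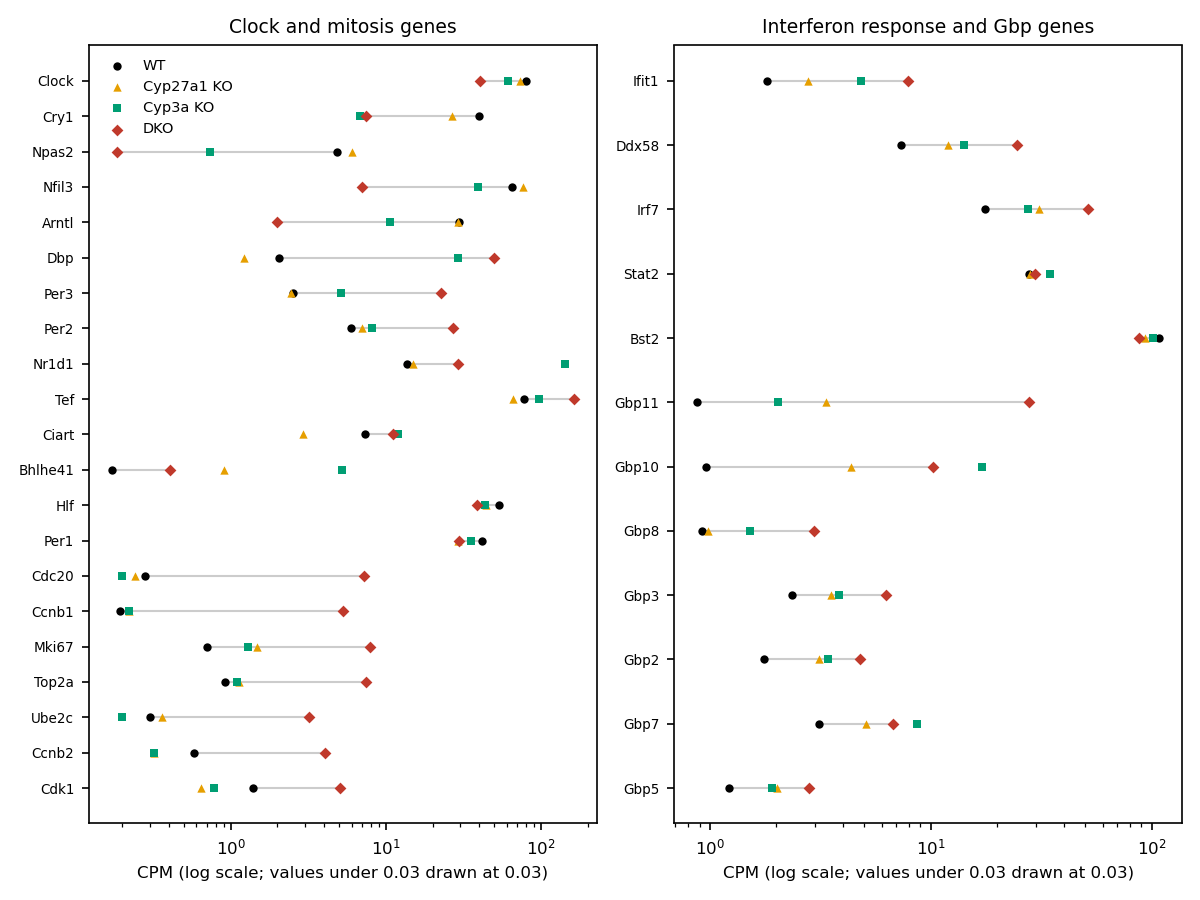
CPM in the 4 libraries on a log axis for the clock and mitosis genes (left) and the interferon response and Gbp genes (right) named in the text, with WT as black circles, the Cyp27a1 KO as orange triangles, the Cyp3a KO as green squares and the DKO as red diamonds. Arntl, Nfil3, Npas2 and Cry1 lie far left in the DKO or the Cyp3a KO, and the mitosis genes stand apart in the DKO only. Of the 13 measured mitosis genes, 10 passed the filter through the DKO alone. The interferon genes shift by less, for example Ifit1 from 1.82 to 7.94 CPM.

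In bulk liver RNA, more or fewer cells of a type and more or less RNA per cell cannot be told apart. Of the 12 Kupffer cell markers, 2 were called higher (Adgre1 and Cd5l), 1 lower (Cd163) and 9 neither, with a median log2 fold of 0.62; on TPM 4 were higher and 1 lower. Their summed level was 345 CPM in WT, 357 and 228 in the Cyp27a1 and Cyp3a knockouts, and 509.6 in the DKO. Adgre1 (F4/80) stood at 12.6 CPM in WT and 33.3 in the DKO (Cyp27a1 KO 16.4, Cyp3a KO 9.29). Clec4f stood at 76.1 CPM in WT and 91.8 in the DKO. Cd163 stood at 29.9 CPM in WT, 15.3 with Cyp27a1 lost, 15.9 with Cyp3a lost and 9.82 in the DKO, its lowest level being in the DKO. The Cyp3a KO was lowest in the summed level of the 12 markers. Monocyte and neutrophil markers summed to 42.1 CPM in WT, 38.5 and 29.2 in the Cyp27a1 and Cyp3a knockouts, and 50.2 in the DKO, and the 12 T and NK cell markers, of which 0 passed the filter, to 3.24 CPM in WT, 3.13 and 3.32 in the Cyp27a1 and Cyp3a knockouts, and 3.12 in the DKO. Endothelial markers summed to 379 CPM in WT, 326 and 299 in the Cyp27a1 and Cyp3a knockouts, and 338 in the DKO with 0 of 11 called, and 0 of 13 stellate cell and matrix genes were called. Ighm, an immunoglobulin heavy chain, stood at 4.91 CPM in WT, 14.6 and 9.09 in the Cyp27a1 and Cyp3a knockouts, and 12.3 in the DKO. Of 5 measured erythroid genes 4 were called lower on counts, with summed levels of 609 CPM in WT, 449 and 286 in the Cyp27a1 and Cyp3a knockouts, and 280.4 in the DKO, but 1 on TPM. Of 12 markers of neighbouring tissues 10 were below the filter, and the others, Cela1 and Fabp4, had log2 folds of -0.91 and -0.23. The part of cell composition in the interferon, chemokine and mitosis differences was not tested.

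Several of the families above are runs of neighbouring genes called the same way. There were 16 runs of at least 4 adjacent measured genes with the same call. The longest, in the Mup cluster on chromosome 4, held 10 genes called lower from Mup2 to Mup15 (chr4:60135932-61439743) with a median log2 fold of -6.33, and a run of 8 from Mup5 to Mup21 lay in the same cluster. The Cyp2a and Cyp2b cluster on chromosome 7 held 8 genes from Cyp2b10 to Cyp2a22 (chr7:25897620-26952346) with a median of 4.09, among them Cyp2g1 and the pseudogene Cyp2a21-ps. In this run Cyp2b9 and Cyp2b13 passed the filter through the DKO alone, so they could enter it only as genes called higher. The chromosome 5 Gbp cluster held 7 genes called higher from Gbp8 to Gbp11 (chr5:105014150-105346472), and a second Gbp run of 4 lay on chromosome 3. The Serpina run on chromosome 12 held 6 genes called lower, from Serpina1c to Serpina3c, and included the pseudogene Serpina4-ps1, which had 2064 counts in WT, 1157 and 441 in the Cyp27a1 and Cyp3a knockouts, and 0 in the DKO. Further runs higher in the DKO were Gstm6 to Gstm4 on chromosome 3, Gsta4 to Gsta2 on chromosome 9 and Cyp2c55 to Cyp2c39 on chromosome 19. Runs lower in the DKO were Cyp4a14 to Cyp4a32 on chromosome 4 and Plin4, Plin5, Lrg1 and Sema6b on chromosome 17. Neighbours in these runs are mostly duplicates of each other and can share reads, so a run is not a set of independent genes.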

How the data were processed

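Per the labels' protocols, liver stored in RNAlater was extracted with Qiagen RNeasy and made into TruSeq RNA v2 libraries. In the submitters' processing notes stand kallisto 0.43.1, HISAT2 2.0.5, Trimmomatic 0.33 and mm10, with no roles given. The authors deposited an estimated count for each gene symbol and library, which was rounded here. Of these values 44.5% were 0, and 23.8% of those above 0 were exactly whole. The deposited TPM served as an alternative scale. A row without a gene name, at 0 counts, was dropped.

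Counts were scaled with TMM (edgeR 4.0.16, R 4.3.3, factors 0.937, 0.996, 0.994 and 1.08 for WT, Cyp27a1 KO, Cyp3a KO and DKO). Log2 folds are of CPM plus 0.5. Calls need a mean of at least 1 CPM over the 4 libraries, a 2-fold difference and an exact 95% interval (Clopper-Pearson on the 2 counts given their sum) that leaves out a ratio of 1. Where a library had 0 counts, 3 counts served as the floor. As the reads carry no molecular identifiers, these intervals and the floor cover counting error alone. With 1 library per genotype no test was run. The code was tested on simulated data.

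The comparison, the 64 gene lists and their members were chosen with earlier results of these data known. Genes named are all measured members of the deleted-gene and bile acid lists, in other lists up to 6 with the largest folds and the one nearest the median, and the 20 largest and 20 smallest log2 folds with a mean of at least 5 CPM, predicted symbols passed over; some were left out for length, some are not reported here, and others are named to show a list's range or its members near 0. Coordinates are from GENCODE M21 (GRCm38), which matched 11503 of the 11743 genes by symbol. Upstream windows of 250 bases came from RefSeq (GRCm38.p6). Alternatives were library-total and median-of-ratios scaling (DESeq2 1.42.0), TPM, TPM recentred, other filters, pseudocounts of 0.1 and 2, no counting interval and a 4-fold rule. Python 3.11.15 with numpy 2.4.6, scipy 1.17.1, pandas 2.3.3 and matplotlib 3.10.9 was used.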

Additional observations from a re-analysis of the deposited data

How the results depend on the processing

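The 705 genes called higher and 472 called lower were recounted under 12 other settings. On the deposited TPM the counts were 1280 higher and 268 lower, and with a mean of at least 5 CPM 454 genes were higher. With a 4-fold rule 197 were higher and 114 lower. Library totals gave 975 and 356, and TPM recentred on the median gene gave 684 and 452. No direction was reversed among the 814 genes named or listed; of all 1177 called genes, Dpy19l3 and Smarcd3 had the other sign on TPM. Each of the 814 was recomputed under the 4 other scales and the 2 other pseudocounts, and the call was lost under at least 1 of these for 58 and gained for 43. On TPM the genes called lower went from 3 to 1 in the growth hormone, amino acid and ATF4 lists and from 4 to 2 in complement and coagulation, while ATF4 genes called higher went from 1 to 3 and xenobiotic receptor and P450 support genes from 2 to 4. No paired analysis was possible because each genotype has 1 library and the labels carry no replicate numbers. Leaving out a library was not possible for the same reason. At these depths 1 count was worth 0.0214 CPM in WT and 0.0185 in the DKO, so differences below 1 CPM rest on few counts, and variation between animals cannot be told apart from genotype.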

Other observations

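Genes outside the lists also stood far apart, and those named here were taken by the size of their fold after the values were seen. Atp6v0d2, a subunit of the vacuolar proton pump, stood at 0.944 CPM in WT and 83.5 in the DKO (Cyp27a1 KO 10.7, Cyp3a KO 4.31), 88.5-fold higher (65.8 to 122) in the DKO than in WT. Akr1b7, an aldo-keto reductase, stood at 1.16 CPM in WT, 4.26 with Cyp27a1 lost, 5.19 with Cyp3a lost and 57.2 in the DKO, and Lrtm2 at 0.107 CPM in WT, 4.14 and 0.2596 in the Cyp27a1 and Cyp3a knockouts, and 31.4 in the DKO. Themis, a gene best known from thymocyte selection, stood at 0.172 CPM in WT and 16.98 in the DKO (Cyp27a1 KO 3.13, Cyp3a KO 0.2796). The 12 T and NK cell markers, of which 0 passed the filter, summed to 3.24 CPM in WT and 3.12 in the DKO. Which cells the Themis reads came from was not tested. Cyp26a1, which degrades retinoic acid, stood at 6.05 CPM in WT, 30.8 with Cyp27a1 lost, 9.77 with Cyp3a lost and 38.6 in the DKO, Scd2 at 3.99 CPM in WT, 4.22 and 3.096 in the Cyp27a1 and Cyp3a knockouts, and 50.1 in the DKO, and Pparg, the adipogenic nuclear receptor, at 2.51 CPM in WT and 12.4 in the DKO (Cyp27a1 KO 10.6, Cyp3a KO 7.61). Wee1, a mitotic entry kinase that is also under clock control, stood at 2.702 CPM in WT, 2.71 with Cyp27a1 lost, 3.91 with Cyp3a lost and 16.9 in the DKO.

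Among genes lower in the DKO, Ppp1r3c, which targets a phosphatase to glycogen, stood at 190.1 CPM in WT, 66.8 and 53.9 in the Cyp27a1 and Cyp3a knockouts, and 4.36 in the DKO. Scara5, a ferritin receptor, stood at 58.04 CPM in WT and 0.185 in the DKO (Cyp27a1 KO 23.1, Cyp3a KO 10.4), with each single knockout also below WT. Dio1, the deiodinase that activates thyroid hormone, stood at 207 CPM in WT, 115 with Cyp27a1 lost, 96.9 with Cyp3a lost and 21.5 in the DKO. Hao1, the peroxisomal glycolate oxidase, stood at 205 CPM in WT, 199 and 253 in the Cyp27a1 and Cyp3a knockouts, and 23.6 in the DKO, and Avpr1a, a vasopressin receptor, at 36.8 CPM in WT and 3.14 in the DKO (Cyp27a1 KO 8.63, Cyp3a KO 18.2). Il1r1, the receptor of interleukin 1, stood at 197 CPM in WT, 61.99 with Cyp27a1 lost, 73.3 with Cyp3a lost and 25.5 in the DKO. For all 6 the DKO was the lowest library.

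Calls among pseudogenes differed by annotated class. Of 40 measured unprocessed pseudogenes 5 were higher and 12 lower in the DKO, and of 28 transcribed unprocessed ones 6 were higher and 2 lower. Of 156 processed pseudogenes 17 were higher and 9 lower, and of 22 transcribed processed ones 3 were higher and 1 lower. Of the other 3 classes, with 7, 4 and 2 genes, 1 gene was called. Some called pseudogenes, such as Mup-ps18 and Serpina4-ps1, lie in the runs described above and can share reads with their neighbours. These counts are therefore not of independent genes. Protein-coding genes had 656 higher and 433 lower of 11231. Rpl10-ps1 had 0 counts in WT, 0 and 0 in the Cyp27a1 and Cyp3a knockouts, and 1484 in the DKO. A gene listed as Gm21320 took 2.292% of the WT counts and 0.2196% of the DKO counts.

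The ratio of counts to TPM gives an effective length that can differ between libraries when other transcript forms are used. Over 8895 genes with at least 200 counts, 90% of the shifts between WT and the DKO lay between -0.25 and 0.20 on the log2 scale after the median shift was subtracted, and 5 genes were beyond 1 in size. These were Zbtb37 (-1.79), Atp2b4 (-1.33), Sned1 (-1.02), Notch4 (1.19) and Mycbp (1.05). Zbtb37, Atp2b4 and Notch4 had 266, 247 and 282 counts in WT, not far above the 200 required. The TPM of Atp2b4 was 0.89 in WT, 0.99 and 9.52 in the Cyp27a1 and Cyp3a knockouts, and 3.03 in the DKO. Its counts in that order were 247, 217, 228 and 303. Whether such shifts come from other transcript forms or from the assignment of reads was not tested. Per2, a clock gene called higher, had a shift of 0.82, with a log2 fold of 2.10 on counts and 1.52 on TPM. Slc15a4 had -0.95.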
